A study of Homo sapiens with 24 samples.

Results

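The receptor tyrosine kinases most often studied in glioma were followed at the mRNA level in human U87-T glioblastoma cells that had lost DAXX or ATRX, with and without the topoisomerase poison etoposide. They were the 10 listed genes EGFR, ERBB2, PDGFRA, PDGFRB, MET, AXL, FGFR1, FGFR3, IGF1R and EPHA2, looked up by symbol among the 57736 genes of the count table, and all 10 were found. U87-T is the U87 line carrying a TERT transgene. The WT cells had received a control Cas9 lentivirus, and DAXX_KO and ATRX_KO were each a single CRISPR clone that had survived with features of alternative lengthening of telomeres, so a difference from WT joins the knockout with whatever else sets that clone apart, and these cannot be told apart here. A DAXX series and an ATRX series of 12 libraries each held 4 groups of 3 libraries, namely WT and KO cells as control and with etoposide, and each series had its own WT libraries. The labels call the control cells untreated while the study describes DMSO, and neither the labels nor the sequencing methods give the etoposide dose of these libraries.

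Receptor tyrosine kinases are cell-surface proteins that pair up when a growth factor binds and then phosphorylate each other, which recruits adaptors such as GRB2 and the PI3-kinase subunits and switches on the RAS-ERK and AKT pathways. ERK signalling in turn raises transcripts of its own brakes, the Sprouty proteins and dual-specificity phosphatases. EGFR and PDGFRA are the receptors most often amplified in glioblastoma, and MET, AXL, IGF1R, EPHA2 and the FGF receptors are known as alternatives through which glioma cells can signal when one receptor is blocked. U87 cells are known to make HGF, the ligand of their own MET.

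Library totals ran from 6928950 to 13298557 counts. DAXX mRNA was lower in DAXX_KO than in WT control cells by a log2 fold change of −2.53 (SE 0.15) and ATRX mRNA was lower in ATRX_KO by −1.25 (SE 0.09), so the titles were followed, although the tag that gives the genotype of the former names the wrong gene. VIM, CD44 and NES were read in every library, while the astrocyte markers GFAP and S100B were at 0 to 6 counts and at 0, and OLIG2 and SOX2 reached at most 1.67 and 4.53 CPM. SOX2 had 9 to 20 and 48 to 59 counts in DAXX- and ATRX-series WT control, and 1 to 5 and 1 to 2 in DAXX_KO and ATRX_KO control. OLIG2 had 6 to 8 and 2 to 12 in the same WT groups, and 0 and 0 to 3 in the same KO groups. The part of these differences in the knockout results was not tested. The summed level of the 7 glial and glioma markers, almost all from VIM and CD44, was 4310 to 7213 CPM (counts scaled to library size) in control libraries. With etoposide it was 1596 to 3143 CPM, a shift whose part in the etoposide results was not tested. Sums for markers of other cells were 17.7 to 41.2 CPM for blood cells, almost all from CD68, and at most 3.24 CPM for epithelium and 1.28 CPM for endothelium (CDH5 and VWF). Neuronal markers reached 63.5 to 65.3 CPM in DAXX_KO control and 43.9 to 48.4 CPM in DAXX_KO etoposide libraries, from MAP2, against 7.53 to 22.8 CPM in the other groups, and their part in the DAXX_KO results was not tested. These are bulk libraries, in which fewer expressing cells and less mRNA per cell cannot be told apart, and although the study calls its experiments biologically replicated in general, neither the labels nor the sequencing methods say that these replicates were separate cultures, so the p-values measure the spread between libraries, which may be technical.

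Etoposide lowered EGFR in every genotype, lowered MET less in DAXX_KO than in WT, and raised IGF1R in WT cells, where its etoposide difference exceeded that in KO cells. The 250 bases upstream of the annotated starts of these 3 genes are shown because they carry the etoposide results, taken from RefSeq on GRCh38.p14, all on the + strand, for EGFR at chr7:55018767-55019016, for MET at chr7:116671946-116672195 and for IGF1R at chr15:98648289-98648538, with the GC box GGGCGG, searched on both strands, in capitals.
EGFR: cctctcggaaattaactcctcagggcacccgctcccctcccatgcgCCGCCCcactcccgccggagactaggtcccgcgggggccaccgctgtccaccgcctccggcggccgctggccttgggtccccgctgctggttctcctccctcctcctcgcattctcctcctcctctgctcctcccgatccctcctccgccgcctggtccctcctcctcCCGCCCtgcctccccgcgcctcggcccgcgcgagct
MET: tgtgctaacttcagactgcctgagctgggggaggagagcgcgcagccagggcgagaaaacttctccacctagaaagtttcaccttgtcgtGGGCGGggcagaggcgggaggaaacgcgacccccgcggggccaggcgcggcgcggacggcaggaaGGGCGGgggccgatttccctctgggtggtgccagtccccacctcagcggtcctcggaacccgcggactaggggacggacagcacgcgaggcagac
IGF1R: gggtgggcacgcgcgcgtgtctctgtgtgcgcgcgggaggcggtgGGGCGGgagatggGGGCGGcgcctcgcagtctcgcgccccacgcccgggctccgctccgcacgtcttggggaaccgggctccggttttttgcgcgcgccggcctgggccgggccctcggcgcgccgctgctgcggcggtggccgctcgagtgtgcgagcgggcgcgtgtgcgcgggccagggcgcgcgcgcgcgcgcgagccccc
Each of the 3 windows held 2 GC boxes, a motif present in 42.6% of 35116 RefSeq windows of this length, and their GC content was 73.6% for EGFR, 68.4% for MET and 81.2% for IGF1R against a median of 58% over all windows. None of the 3 held a CCAAT box (CCAAT, 32% of all windows), a TATA box (TATAAA, 10.7%), an AP-1 site (TGANTCA, 6.57%), an E-box (CACGTG, 6.34%) or a p53 half-site (5.57%). The other EGFR entry, with a GC content of 38.8%, held 0 GC boxes, 2 TATA boxes and 2 AP-1 sites. Entries were found for 9 of the 10 receptors, 2 each for EGFR, PDGFRA and AXL, and none of these entries held a p53 half-site. These matches describe letters in a window and not binding.

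On GRCh37, the build of the counts, GENCODE places EGFR at chromosome 7 from 55086710 to 55279321 and MET on the same chromosome from 116312250 to 116438431, both on the + strand. ERBB2 lies on chromosome 17 from 37844167 to 37886679, AXL on chromosome 19 from 41725128 to 41767671 and IGF1R on chromosome 15 from 99191768 to 99507759. PDGFRA lies on chromosome 4 from 55095447 to 55164412, FGFR3 on the same chromosome from 1795020 to 1810599, PDGFRB on chromosome 5 from 149493402 to 149535435, FGFR1 on chromosome 8 and EPHA2 on chromosome 1 from 16450832 to 16482564. All are protein-coding genes, and a 3′ library counts transcript ends, whose positions in these genes were not examined.

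Of the 10 receptors 9 could be tested, since FGFR3 was filtered out for low counts. A gene was called when edgeR's quasi-likelihood test gave an adjusted p (Benjamini-Hochberg over all genes tested) below 0.05. Each count is set beside the share of all tested genes that was called, because knockout and etoposide moved large parts of the transcriptome. In control cells 3 receptors were called higher and 5 lower in DAXX_KO than in WT, where 53.4% of all genes were called, 26.7% higher and 26.6% lower. In ATRX_KO 1 was higher and 5 were lower, where 41.8% of all genes were called, 20.8% higher and 21% lower. Etoposide in DAXX-series WT cells gave 1 higher and 7 lower (60.2% of all genes called, 29.6% higher and 30.6% lower), and in ATRX-series WT cells 2 higher and 4 lower (61.5%, 31.7% and 29.8%). In KO cells etoposide gave 1 higher and 5 lower for DAXX_KO (54.5%, 26.8% and 27.8%) and 0 higher and 3 lower for ATRX_KO (49.5%, 24.3% and 25.2%). The 1 higher in DAXX_KO was PDGFRA, from 11 against 2 counts, a call lost by DESeq2 (adjusted p = 0.0992). For ATRX_KO the number higher was also 0 at an unadjusted edgeR p below 0.05 and by DESeq2. Between KO and WT under etoposide 3 were higher and 4 lower for DAXX_KO (53%, 27.9% and 25.2%), and 1 higher and 4 lower for ATRX_KO (45.9%, 23% and 22.9%). The counts of differences from WT include PDGFRA, which passed the filter only through WT libraries. PDGFRA is also among the 7 lower with etoposide in DAXX-series WT. It passed there through WT control alone, so that call is not read as a test. The comparisons within a series share libraries, so that a high value in WT control enters both the knockout and the etoposide difference.

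**Figure D1:**
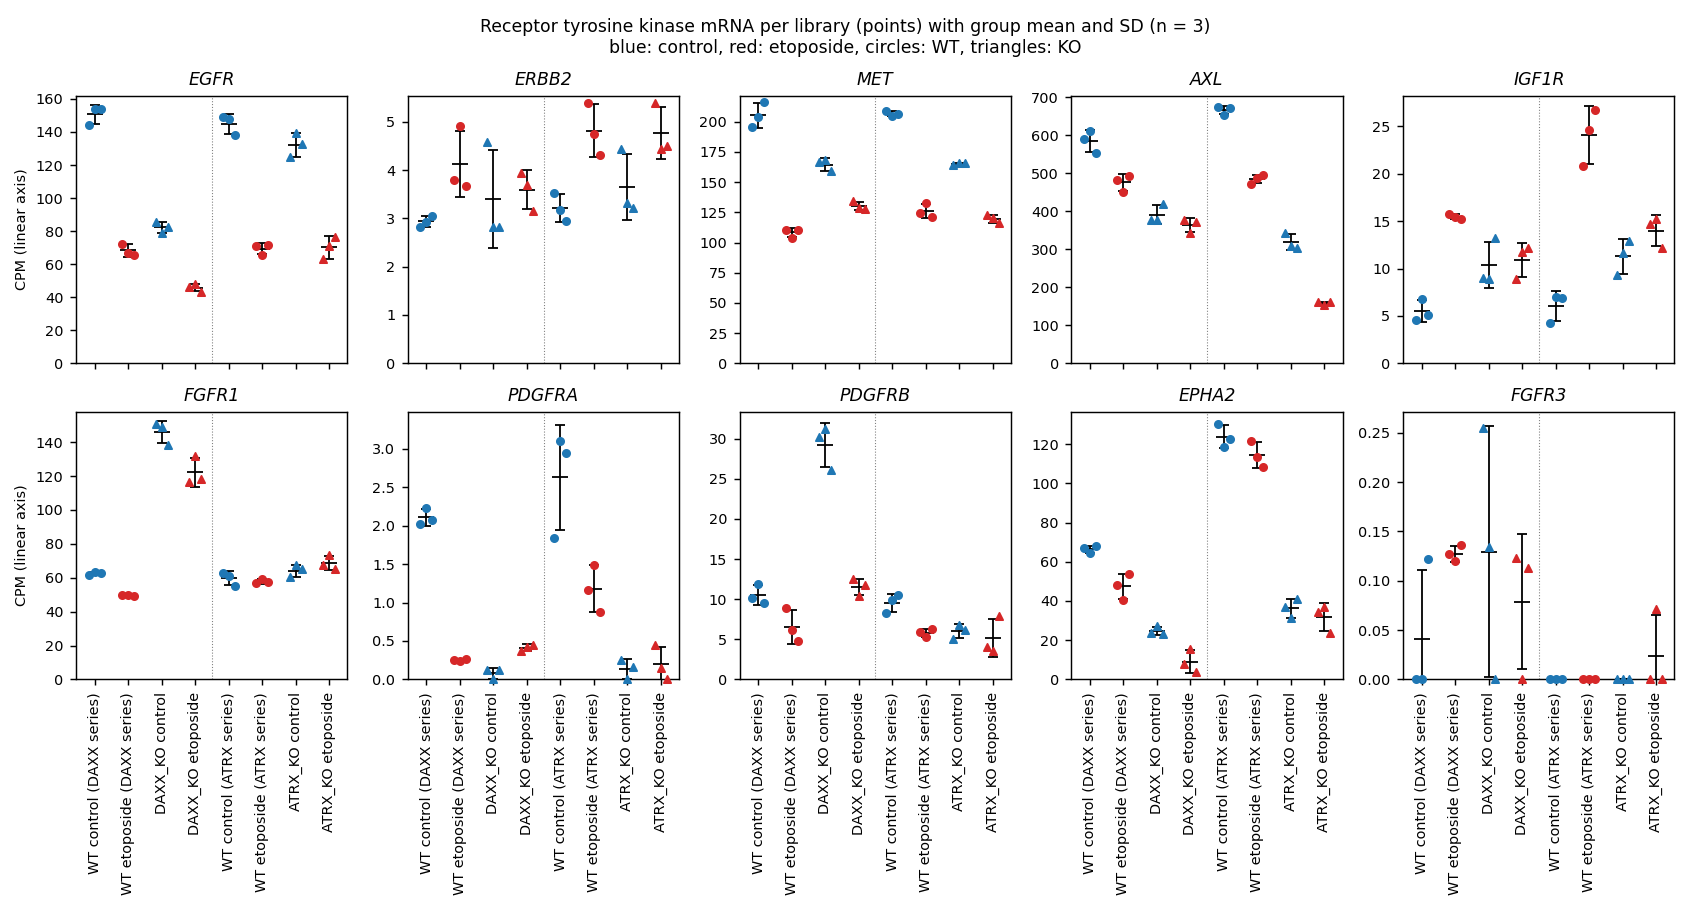
mRNA level of the 10 receptors in CPM on a linear axis starting at 0, with 1 point per library, the group mean as a dash and the SD as a bar (n = 3) for the 8 groups. Control libraries are blue and etoposide libraries red, WT are circles and KO triangles. EGFR is lower in every etoposide group than in its own control, IGF1R is highest in the WT etoposide groups, PDGFRB and FGFR1 stand out in DAXX_KO, and FGFR3 stays near 0.

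EGFR, the receptor of EGF, TGFA and several related ligands, was lower in DAXX_KO and hardly different in ATRX_KO, and etoposide lowered it everywhere. In WT control cells of the DAXX series its level was 144, 154 and 154 CPM in the 3 libraries, and in DAXX_KO 85.8, 78.9 and 82.3 CPM. With etoposide the levels were 72.5, 66.7 and 65.6 CPM in WT and 46.0, 47.9 and 43.3 CPM in DAXX_KO. Thus all 4 groups of that series stood apart from one another, with DAXX_KO etoposide lowest. The knockout difference in control cells was a log2 fold change of −0.87 (SE 0.07, edgeR adjusted p = 4.01e-09), and the etoposide difference was −1.13 (SE 0.07, edgeR adjusted p = 5.47e-11) in WT and −0.84 (SE 0.07, edgeR adjusted p = 1.3e-08) in DAXX_KO. The interaction was 0.28 (SE 0.10, edgeR adjusted p = 0.0717), and 0.32 without DAXX_KO etoposide replicate 3 (edgeR adjusted p = 0.0453).

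ATRX-series EGFR levels were 149, 148 and 138 CPM in WT control, and 125, 139 and 133 CPM in ATRX_KO control. With etoposide they were 71.2, 65.7 and 71.3 CPM in WT and 63.0, 70.7 and 76.6 CPM in ATRX_KO. WT and ATRX_KO libraries overlapped in both conditions, while control and etoposide libraries were far apart. The ATRX_KO difference was −0.13 (95% interval −0.28 to 0.03, edgeR adjusted p = 0.221) in control and −0.01 (−0.17 to 0.15) with etoposide, and the etoposide difference was −1.04 (SE 0.08, edgeR adjusted p = 9.17e-09) in WT and −0.93 (SE 0.08, edgeR adjusted p = 7.89e-08) in ATRX_KO. The knockout effect on EGFR was lower in DAXX_KO than in ATRX_KO by −0.74 (SE 0.10, edgeR adjusted p = 2.54e-06) in the model of all 24 libraries.

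ERBB2, the ligandless partner of EGFR and of the neuregulin receptors, was read at 21 to 62 counts a library, which limits what can be seen. WT control levels were 2.83 to 3.06 CPM in the DAXX series and 2.95 to 3.53 CPM in the ATRX series, and WT etoposide levels 3.67 to 4.91 and 4.32 to 5.40 CPM. These do not overlap in either series, and the difference was called in the ATRX series (log2 fold change 0.60, SE 0.21, edgeR adjusted p = 0.0205), not in the DAXX series (0.51, SE 0.26, edgeR adjusted p = 0.101). With at least 10 counts in every library the DAXX-series difference was called too (0.58, edgeR adjusted p = 0.0389). With no filter the ATRX-series one was not called (0.56, edgeR adjusted p = 0.0954). The ATRX-series call was lost without WT control replicate 2 (0.58, edgeR adjusted p = 0.053), without WT control replicate 3 (0.53, 0.0698) and without WT etoposide replicate 1 (0.49, 0.0926). No knockout comparison of ERBB2 was called, with 95% intervals of −0.31 to 0.74 for DAXX_KO and −0.24 to 0.60 for ATRX_KO in control cells.

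MET, the HGF receptor, was slightly lower in both KO lines and was lowered by etoposide in all cells, but less in DAXX_KO than in WT. DAXX-series levels were 196, 204 and 216 CPM in WT control and 166, 169 and 159 CPM in DAXX_KO control. With etoposide they were 111, 104 and 111 CPM in WT and 134, 128 and 128 CPM in DAXX_KO. The order of the genotypes was therefore turned around, WT being the higher one in control libraries and DAXX_KO in etoposide libraries, with no overlap in either condition. Etoposide changed MET by −0.91 (SE 0.06, edgeR adjusted p = 3.24e-10) in WT and by −0.33 (SE 0.06, edgeR adjusted p = 0.000208) in DAXX_KO, and the difference between these responses, the interaction term, was 0.58 (SE 0.09, edgeR adjusted p = 0.00024).

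The DAXX_KO difference in MET was −0.32 (SE 0.06, edgeR adjusted p = 0.000274) in control cells and 0.26 (SE 0.06, edgeR adjusted p = 0.0024) with etoposide. Scaled by library totals alone, which moved the median of all genes in the control comparison by 0.18, the first was −0.13 (edgeR adjusted p = 0.0801). In the etoposide comparison the median over 60 tested neighbours on chromosome 7 was 0.29, and MET minus that median was −0.03, so relative to its neighbourhood MET was not higher. ATRX-series levels were 209, 205 and 206 CPM in WT control, 164, 166 and 166 CPM in ATRX_KO control, 125, 132 and 121 CPM in WT etoposide and 123, 120.1 and 116 CPM in ATRX_KO etoposide. Here the genotypes separated in control libraries (−0.32, SE 0.06, edgeR adjusted p = 0.000636) and overlapped with etoposide (−0.10, 95% interval −0.23 to 0.02). MET minus the median of its neighbours was −0.16 in ATRX_KO and −0.48 in DAXX_KO control cells.

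AXL, the receptor of GAS6, was lowered by etoposide in ATRX_KO cells more than in WT cells. ATRX-series levels were 675, 654 and 671 CPM in WT control and 472, 487 and 494 CPM in WT etoposide, against 343, 309 and 303 CPM in ATRX_KO control and 161, 154 and 160.3 CPM in ATRX_KO etoposide. The 4 groups did not overlap, and the ATRX_KO etoposide libraries were far below the rest. ATRX_KO differed from WT by −1.06 (SE 0.07, edgeR adjusted p = 1.93e-09) in control cells and −1.64 (SE 0.07, edgeR adjusted p = 2.12e-11) with etoposide. Etoposide changed AXL by −0.44 (SE 0.07, edgeR adjusted p = 2.07e-05) in WT and by −1.02 (SE 0.07, edgeR adjusted p = 2.42e-09) in ATRX_KO, with an interaction of −0.58 (SE 0.09, edgeR adjusted p = 0.000686).

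DAXX-series AXL was 590.1, 611 and 554 CPM in WT control, 483, 451 and 493 CPM in WT etoposide, 376, 378 and 419 CPM in DAXX_KO control and 376, 343 and 371 CPM in DAXX_KO etoposide. WT libraries were above DAXX_KO libraries in both conditions, and the DAXX_KO groups adjoined each other, with etoposide just below control. The knockout difference was −0.58 (SE 0.07, edgeR adjusted p = 3.87e-07) in control cells and −0.40 (SE 0.07, edgeR adjusted p = 4.21e-05) with etoposide, and etoposide changed AXL by −0.28 (SE 0.06, edgeR adjusted p = 0.000889) in WT and by −0.10 (95% interval −0.23 to 0.03, edgeR adjusted p = 0.212) in DAXX_KO. The last was −0.21 when scaled by library totals (edgeR adjusted p = 0.0131). The knockout effect was 0.49 higher in DAXX_KO than in ATRX_KO (SE 0.09, edgeR adjusted p = 9.84e-05), which is to say a smaller decrease.

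IGF1R, the receptor of the insulin-like growth factors, was higher in both KO lines in control cells and rose with etoposide in WT cells, so that the order of genotypes was reversed by treatment. DAXX-series WT libraries had 45, 58 and 42 counts (4.54, 6.80 and 5.14 CPM) in control and 124, 129 and 112 counts (15.7, 15.5 and 15.2 CPM) with etoposide. DAXX_KO libraries had 9.04, 8.86 and 13.2 CPM in control and 8.88, 11.7 and 12.2 CPM with etoposide. The WT etoposide libraries were the highest and the WT control libraries the lowest, with both DAXX_KO groups between them and overlapping. The changes were 0.93 (SE 0.20, edgeR adjusted p = 0.000577) for the knockout in control cells, 1.51 (SE 0.19, edgeR adjusted p = 1.09e-06) for etoposide in WT and 0.08 (95% interval −0.27 to 0.44, edgeR adjusted p = 0.73) for etoposide in DAXX_KO. The interaction was −1.43 (SE 0.26, edgeR adjusted p = 0.00108).

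In the other series IGF1R was 4.22, 7.03 and 6.90 CPM in WT control, 20.8, 24.6 and 26.8 CPM in WT etoposide, 9.31, 11.6 and 12.9 CPM in ATRX_KO control and 14.7, 15.2 and 12.1 CPM in ATRX_KO etoposide. The pattern had the same shape, with WT at both ends and the KO groups between, again overlapping each other. The knockout difference was 0.91 (SE 0.19, edgeR adjusted p = 0.00095) in control cells and −0.81 (SE 0.17, edgeR adjusted p = 0.000805) with etoposide, and etoposide changed IGF1R by 2.02 (SE 0.18, edgeR adjusted p = 5.34e-08) in WT against 0.30 (95% interval −0.04 to 0.64, edgeR adjusted p = 0.168) in ATRX_KO. The interaction was −1.72 (SE 0.25, edgeR adjusted p = 0.000279). The corresponding difference of DAXX_KO from WT under etoposide was smaller, −0.50 (SE 0.17, edgeR adjusted p = 0.0202), and was not called without DAXX_KO etoposide replicate 1 (−0.37, edgeR adjusted p = 0.106) or WT etoposide replicate 1 (−0.49, 0.0544).

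**Figure D2:**
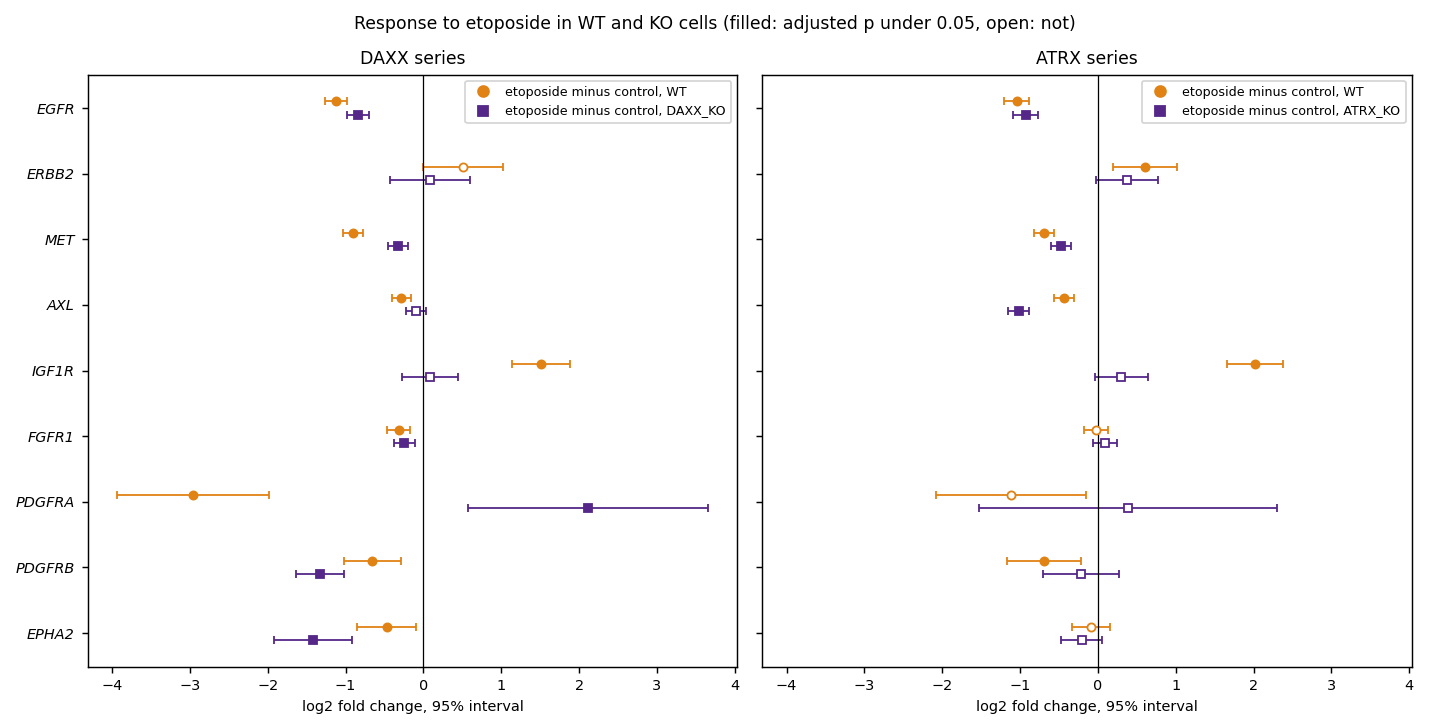
Etoposide minus control as log2 fold change (horizontal axis) with 95% intervals for the 9 tested receptors (rows), in WT (orange circles) and KO cells (purple squares) of the DAXX series (left) and ATRX series (right). Filled symbols had an edgeR adjusted p below 0.05. IGF1R lies at 1.51 and 2.02 in WT and at 0.08 and 0.30 in the KO lines, and EGFR lies between −1.13 and −0.84 in all 4. In the DAXX series PDGFRA passed the low-count filter only through WT control, so the fill of its WT symbol there is not read as a test.

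PDGFRA, the PDGF receptor that marks oligodendrocyte progenitors and proneural glioma, was read at 0 to 37 counts a library, where 3 counts correspond to 0.215 to 0.407 CPM. DAXX-series libraries had 20, 19 and 17 counts in WT control, 2, 2 and 2 in WT etoposide, 1, 0 and 1 in DAXX_KO control and 3, 4 and 4 in DAXX_KO etoposide. ATRX-series libraries had 24, 37 and 35 counts in WT control, 13, 16 and 9 in WT etoposide, 3, 0 and 2 in ATRX_KO control and 5, 2 and 0 in ATRX_KO etoposide. WT control libraries were above all KO libraries, without overlap. Scaled for depth, the summed counts of WT control were 24.7 times those of DAXX_KO control (exact 95% interval 6.53 to 209.1) and 19.0 times those of ATRX_KO control (7.88 to 59.98), both intervals covering counting error only. PDGFRA passed the low-count filter through its WT control libraries alone in the DAXX series and through its WT libraries in the ATRX series. Differences of the other groups from those groups are therefore given as a description, without a test.

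In DAXX-series WT cells the ratio of control to etoposide counts of PDGFRA was 8.29 (exact 95% interval 3.58 to 23.5). The same ratio in the ATRX series was 2.20 (1.497 to 3.294), which edgeR did not call (adjusted p = 0.0584) and DESeq2 did (0.0472). In DAXX_KO cells the ratio of etoposide to control was 4.88 (1.07 to 45.3), from 11 against 2 counts, called at an edgeR adjusted p of 0.0302. That call rests on a handful of reads and was lost without DAXX_KO control replicate 2 (0.129), DAXX_KO etoposide replicate 2 (0.0581) or DAXX_KO etoposide replicate 3 (0.0658), and by DESeq2 (0.0992). With etoposide, the ratio of WT to ATRX_KO counts was 6.54 (2.88 to 17.4). In the DAXX series WT etoposide libraries had 6 counts in all and DAXX_KO etoposide libraries 11, a ratio of DAXX_KO to WT of 1.64 (0.554 to 5.38). This difference was not called (log2 fold change 0.67, edgeR adjusted p = 0.422).

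PDGFRB, the receptor of PDGF-B and PDGF-D that is typical of pericytes and mesenchymal cells, was higher in DAXX_KO and lower in ATRX_KO than in WT in control cells. Its DAXX-series levels were 10.1, 11.96 and 9.54 CPM in WT control and 30.2, 31.3 and 26.1 CPM in DAXX_KO control, and with etoposide 8.87, 6.11 and 4.75 CPM in WT and 12.5, 10.4 and 11.7 CPM in DAXX_KO. DAXX_KO control libraries stood above every other library of either series. The knockout difference was 1.47 (SE 0.16, edgeR adjusted p = 1.89e-07) in control cells and 0.79 (SE 0.18, edgeR adjusted p = 0.00122) with etoposide, and etoposide changed PDGFRB by −0.66 (SE 0.19, edgeR adjusted p = 0.00491) in WT and −1.33 (SE 0.16, edgeR adjusted p = 5.41e-07) in DAXX_KO. The difference between these responses was −0.67 (SE 0.24, edgeR adjusted p = 0.074), which was called without WT etoposide replicate 3 of that series (−0.85, edgeR adjusted p = 0.0271) and was −0.40 without WT etoposide replicate 1.

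ATRX-series PDGFRB was 8.30, 9.88 and 10.5 CPM in WT control, 5.93, 5.30 and 6.28 CPM in WT etoposide, 5.04, 6.79 and 6.19 CPM in ATRX_KO control and 4.07, 3.51 and 7.93 CPM in ATRX_KO etoposide. WT control libraries were above those of the other groups, and ATRX_KO etoposide replicate 3 lay well above its fellows. The knockout difference in control cells was −0.66 (SE 0.24, edgeR adjusted p = 0.0341), not called without ATRX_KO control replicate 1 (−0.55, 0.123), ATRX_KO control replicate 3 (−0.68, 0.0578), WT control replicate 2 (−0.64, 0.0844) or WT control replicate 3 (−0.60, 0.0996). Etoposide changed PDGFRB by −0.69 (SE 0.24, edgeR adjusted p = 0.0208) in WT, not called without WT control replicate 2 (0.0504), WT control replicate 3 (0.0619) or WT etoposide replicate 2 (0.064). In ATRX_KO the etoposide difference was −0.22 (95% interval −0.71 to 0.27), and without etoposide replicate 3 it was −0.68 (edgeR adjusted p = 0.0136). With etoposide ATRX_KO and WT libraries overlapped, with a difference of −0.20 (95% interval −0.69 to 0.30, edgeR adjusted p = 0.556), and −0.65 without ATRX_KO etoposide replicate 3 (edgeR adjusted p = 0.0215). In control cells the DAXX_KO effect exceeded the ATRX_KO effect by 2.13 (SE 0.30, edgeR adjusted p = 2.47e-06).

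FGFR1, a receptor of FGF2 and other fibroblast growth factors, was higher in DAXX_KO in both conditions. DAXX-series levels were 61.7, 63.2 and 63.0 CPM in WT control and 151, 149 and 138 CPM in DAXX_KO control, and with etoposide 49.7, 50.1 and 49.0 CPM in WT and 116, 132 and 119 CPM in DAXX_KO. Every DAXX_KO library was above every WT library. DAXX_KO differed from WT by 1.22 (SE 0.07, edgeR adjusted p = 3.48e-11) in control cells and 1.30 (SE 0.07, edgeR adjusted p = 2.92e-11) with etoposide. Etoposide lowered FGFR1 slightly in WT (−0.32, SE 0.07, edgeR adjusted p = 0.000992) and in DAXX_KO (−0.25, SE 0.07, edgeR adjusted p = 0.00416).

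ATRX-series FGFR1 was 63.1, 60.8 and 55.2 CPM in WT control, 56.7, 59.1 and 57.5 CPM in WT etoposide, 60.4, 67.4 and 64.9 CPM in ATRX_KO control and 67.8, 73.2 and 65.4 CPM in ATRX_KO etoposide. These groups lay close together. The ATRX_KO difference was 0.11 (95% interval −0.04 to 0.26, edgeR adjusted p = 0.287) in control cells and 0.23 (SE 0.08, edgeR adjusted p = 0.028) with etoposide, the latter lost without ATRX_KO etoposide replicate 2 (0.18, edgeR adjusted p = 0.118) or WT etoposide replicate 1 (0.24, 0.0507). The 60 tested genes around FGFR1 were lower as a group in ATRX_KO, with a median log2 fold change of −0.62 in control cells, 40 called lower and 2 higher, so FGFR1 exceeded its neighbourhood by 0.73 in control and 0.90 with etoposide. The DAXX_KO effect exceeded the ATRX_KO effect by 1.12 (SE 0.10, edgeR adjusted p = 1.88e-09), and by 0.44 after the neighbours' median was subtracted. FGFR3, which is fused to TACC3 in a subset of glioblastomas, had 0 to 2 counts in every library, 10 counts over all 24, and no difference was detectable at this depth.

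EPHA2, an ephrin-A receptor often abundant in glioblastoma and itself an ERK-responsive gene, was lower in both KO lines in both conditions. DAXX-series levels were 67.0, 64.4 and 67.9 CPM in WT control, 48.1, 40.7 and 53.6 CPM in WT etoposide, 23.9, 27.1 and 23.2 CPM in DAXX_KO control and 8.02, 15.5 and 3.72 CPM in DAXX_KO etoposide. All 4 groups were apart, and the DAXX_KO etoposide libraries were lowest and most scattered. The knockout difference was −1.42 (SE 0.21, edgeR adjusted p = 9.48e-06) in control cells and −2.37 (SE 0.24, edgeR adjusted p = 1.02e-07) with etoposide, and etoposide changed EPHA2 by −1.42 (SE 0.26, edgeR adjusted p = 9.68e-05) in DAXX_KO. In WT the etoposide difference was −0.47 (SE 0.19, edgeR adjusted p = 0.043), a call lost by DESeq2 (0.33) and without any one of WT control replicate 1 (0.0959), 2 (0.0741) or 3 (0.0877) or WT etoposide replicate 1 (0.0867) or 2 (0.171). That call was also lost in edgeR with RLE size factors (0.053), library totals (0.0509), at least 10 counts in every library (0.0683) and a replicate block (0.0605). The interaction was −0.95 (SE 0.32, edgeR adjusted p = 0.056). In edgeR it was called with at least 10 counts in every library (−0.98, adjusted p = 0.0351), library totals (−1.06, 0.0371) and no filter (−0.94, 1.9e-06). It was −1.61 without DAXX_KO etoposide replicate 2 (edgeR adjusted p = 0.000114) and −0.57 without DAXX_KO etoposide replicate 3. Without the same libraries the etoposide difference in DAXX_KO was −2.08 and −1.04, and the knockout difference with etoposide −3.03 and −1.99.

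ATRX-series EPHA2 was 130.1, 119 and 123 CPM in WT control, 122, 114 and 109 CPM in WT etoposide, 36.7, 31.2 and 40.8 CPM in ATRX_KO control and 34.6, 36.9 and 23.5 CPM in ATRX_KO etoposide. Genotypes were far apart, and treatment made little difference within a genotype. ATRX_KO differed from WT by −1.77 (SE 0.13, edgeR adjusted p = 1.42e-08) in control cells and −1.89 (SE 0.13, edgeR adjusted p = 7.39e-09) with etoposide. Etoposide differences were −0.09 (95% interval −0.33 to 0.15) in WT and −0.21 (−0.47 to 0.06) in ATRX_KO. The WT control cells of the series themselves differed in EPHA2, lower in the DAXX series by −0.90 (SE 0.18, edgeR adjusted p = 0.00158), and in AXL by −0.19 (SE 0.06, edgeR adjusted p = 0.0439), in a comparison where 13.2% of all genes were called, 6.01% higher and 7.22% lower. The AXL call was lost without ATRX-series WT control replicate 1 (0.121), 2 (0.0733) or 3 (0.1) or DAXX-series WT control replicate 1 (0.0778) or 3 (0.214).

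**Figure D3:**
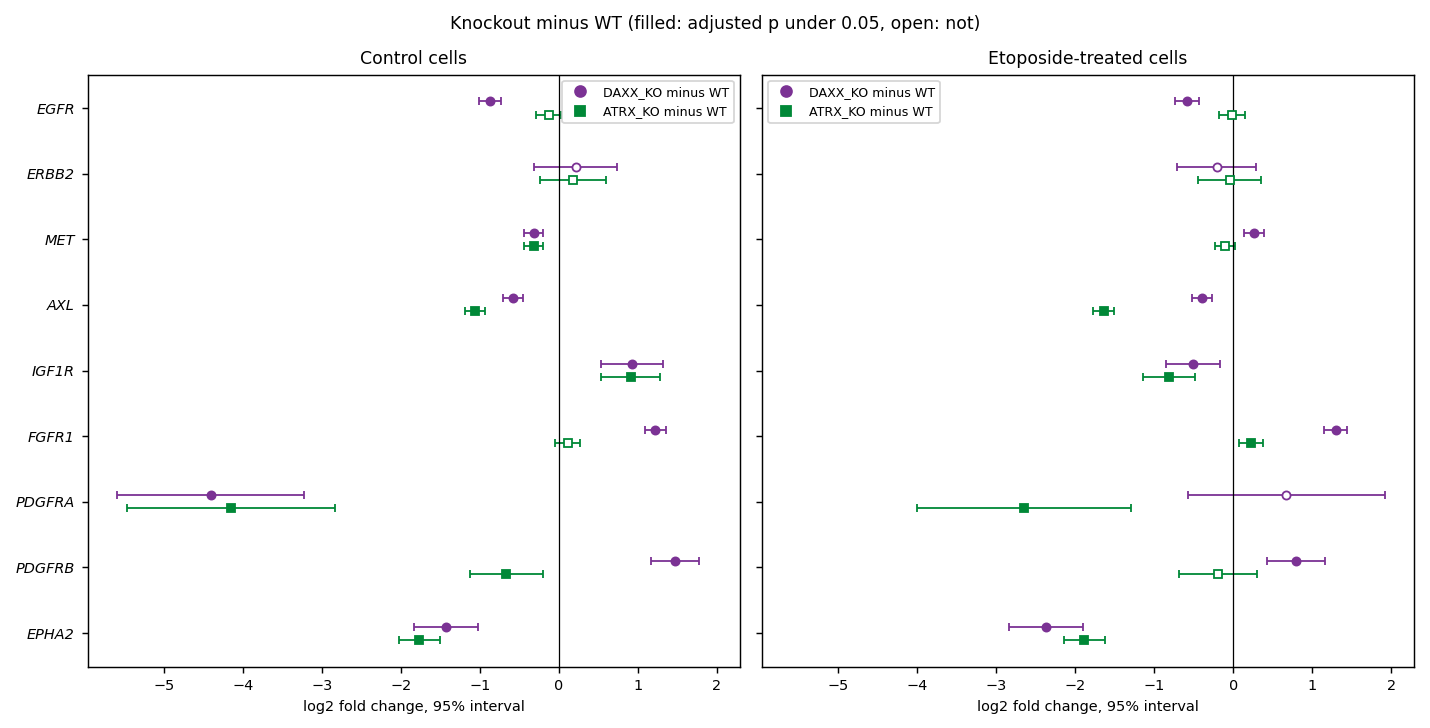
KO minus WT as log2 fold change (horizontal axis) with 95% intervals for the 9 tested receptors (rows), in control cells (left) and etoposide-treated cells (right), for DAXX_KO (purple circles) and ATRX_KO (green squares). Filled symbols had an edgeR adjusted p below 0.05. EPHA2 and AXL lie below 0 in all 4 comparisons, IGF1R is above 0 in control and below 0 with etoposide, and DAXX_KO lies at 1.22 and 1.30 for FGFR1 and at 1.47 and 0.79 for PDGFRB. PDGFRA passed the low-count filter only through WT libraries, so the fill of its symbols is not read as a test.

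The interaction of knockout and etoposide was called for 3 of 9 in the DAXX series, MET and PDGFRA higher and IGF1R lower. PDGFRA passed the filter only through WT control, so its call is not read as a test. Of all genes 14.2% were called in that series, 8.38% higher and 5.79% lower. In the ATRX series the interaction was called for 2 of 9 (AXL and IGF1R lower, 0 higher), where 16% of all genes were, 8.36% higher and 7.64% lower. At an unadjusted edgeR p below 0.05, 1 receptor, MET, was higher in the ATRX series, and MET was called there by DESeq2 (0.24, adjusted p = 0.0492). The knockout effect differed between the lines for 4 of 9 (PDGFRB, FGFR1 and AXL higher in DAXX_KO, EGFR lower), where 34.1% of all genes were called, 17% higher and 17.2% lower. For IGF1R the knockout effects in control cells were 0.93 and 0.91, and their difference was 0.02 with a 95% interval of −0.54 to 0.58. For MET the difference was 0.01 (−0.15 to 0.16).

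The ligands of these receptors were counted from a list of 31, of which 21 (DAXX series) and 23 (ATRX series) were tested. In control cells 7 were higher and 7 lower in DAXX_KO, and 7 higher and 8 lower in ATRX_KO, where 53.4% and 41.8% of all genes were called. HGF, the ligand of MET, was 128 ± 7.37 CPM (SD, n = 3) in DAXX-series WT control and 26.1 ± 1.93 CPM in DAXX_KO, and 198 ± 5.18 CPM in ATRX-series WT control and 62.7 ± 6.87 CPM in ATRX_KO. The log2 fold changes were −2.29 (SE 0.10, edgeR adjusted p = 4.18e-13) and −1.65 (SE 0.12, edgeR adjusted p = 9.12e-09), so that ligand and receptor were both lower, the ligand by more. Etoposide changed HGF in WT cells by −0.66 and −0.69, and in ATRX_KO by −0.86 (SE 0.12, edgeR adjusted p = 1.88e-05), while in DAXX_KO the change was 0.20 (SE 0.11, edgeR adjusted p = 0.114) with an interaction of 0.86 (SE 0.14, edgeR adjusted p = 0.000252).

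IGF2, a ligand of IGF1R, had 12 to 23 counts in DAXX-series and 40 to 54 in ATRX-series WT control libraries. It had 0 in each DAXX_KO control library and 0 to 1 in ATRX_KO control, while etoposide libraries had 34 to 39 and 87 to 113 in WT, 3 to 5 in DAXX_KO and 8 to 13 in ATRX_KO. The receptor was thus higher and the ligand lower in KO control cells. IGF2 passed the low-count filter only through its WT libraries, so its differences from WT are given as a description, without a test. The counts of ligands called lower in KO control cells include IGF2. GAS6, the ligand of AXL, was lower in ATRX_KO (3.67 ± 1.03 against 9.61 ± 0.97 CPM in WT, −1.38, SE 0.21, edgeR adjusted p = 5.53e-05), and its difference in DAXX_KO was −0.37 (edgeR adjusted p = 0.144). PDGFC, a ligand of PDGFRA, was 0.48 higher in DAXX_KO (edgeR adjusted p = 0.000154) and −0.46 in ATRX_KO (edgeR adjusted p = 0.00776). FGF2, a ligand of FGFR1, was 0.70 higher in ATRX_KO (edgeR adjusted p = 0.00163) and not called in DAXX_KO (0.19, edgeR adjusted p = 0.178).

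Etoposide gave 7 higher and 7 lower ligands in DAXX-series WT and 9 higher and 7 lower in ATRX-series WT, where 60.2% and 61.5% of all genes were called. EFNA1, a ligand of EPHA2, rose from 1.22 ± 0.27 to 8.99 ± 0.25 CPM in DAXX-series WT (2.90, SE 0.32) and from 2.17 ± 0.61 to 8.43 ± 0.66 CPM in ATRX-series WT (1.98, SE 0.27, edgeR adjusted p = 6.35e-06). It rose in DAXX_KO too, by 2.35 (SE 0.37), and in ATRX_KO by 1.83 (SE 0.35, edgeR adjusted p = 0.000377), with no interaction called in either series. In the DAXX series EFNA1 lay near the low-count limit in control cells, so its etoposide differences there are given as a description, without a test. The 7 ligands called higher in DAXX-series WT include EFNA1. EREG, a ligand of EGFR, behaved otherwise. Its level went from 34.8 ± 0.46 to 164 ± 8.31 CPM in DAXX-series WT and from 47.1 ± 2.32 to 60.8 ± 10.8 CPM in DAXX_KO, and in the ATRX series from 31.1 ± 2.85 to 215 ± 5.43 CPM in WT against 107 ± 4.23 and 103 ± 11.8 CPM in ATRX_KO. Its interactions of −1.88 (SE 0.14, edgeR adjusted p = 7.38e-08) and −2.88 (SE 0.13, edgeR adjusted p = 1.09e-09) mean that, as for IGF1R, the etoposide difference was smaller in KO than in WT cells.

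Among 31 adaptors and downstream kinases, 30 were tested. In control cells 13 were higher and 5 lower in DAXX_KO, with a median log2 fold change of 0.18 against 0.02 over all genes, of which 53.4% were called, and 8 higher and 7 lower in ATRX_KO (−0.03 against 0.02, 41.8% of all genes called). In DAXX_KO these counts were 19 and 3 (median 0.37) when scaled by library totals and 13 and 7 with RLE size factors. GRB2, the adaptor that links receptors to RAS, was 179.7 ± 6.20 CPM in DAXX-series WT control and 102 ± 3.00 CPM in DAXX_KO (−0.82, SE 0.07, edgeR adjusted p = 4.2e-09). The PI3-kinase subunit gene PIK3R1 was lower in ATRX_KO (−0.82, SE 0.09, edgeR adjusted p = 8.95e-07). IRS2, the docking protein of IGF1R and the insulin receptor, was 1.49 higher in ATRX_KO than in WT control cells (SE 0.13, edgeR adjusted p = 8.22e-08). Etoposide gave 7 higher and 13 lower in DAXX-series WT and 5 higher and 15 lower in ATRX-series WT, beside 30.6% and 29.8% of all genes called lower. IRS2 was among the increases (1.22, SE 0.10, edgeR adjusted p = 3.28e-09, and 1.84, SE 0.13, edgeR adjusted p = 2.02e-09), and the PI3-kinase gene PIK3CB was among the decreases (−1.39, SE 0.11, edgeR adjusted p = 1.5e-09, and −1.76, SE 0.15, edgeR adjusted p = 2.76e-08).

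The brakes on receptor signalling and the transcripts that ERK raises were more often called lower than higher with etoposide. Of 25 negative regulators, 23 (DAXX series) and 24 (ATRX series) were tested, and etoposide in WT gave 3 higher and 14 lower in each, leaving 6 and 7 not called, with medians of −0.79 and −0.72 against 0.02 and 0.07 over all genes, of which 30.6% and 29.8% were called lower. Of the 10 ERK target genes, a list that holds EPHA2 and shares SPRY2, SPRY4, DUSP4 and DUSP6 with the negative regulators, etoposide in WT gave 1 higher and 9 lower in the DAXX series and 1 higher and 8 lower in the ATRX series, with medians of −0.93 and −0.94. In KO cells etoposide gave 3 higher and 13 lower negative regulators for DAXX_KO and 1 higher and 13 lower for ATRX_KO, beside 27.8% and 25.2% of all genes called lower. It gave 0 higher and 6 lower ERK targets in each line. The ERK targets higher in KO cells were also 0 at an unadjusted edgeR p below 0.05 and by DESeq2. With RLE size factors 1 was higher in DAXX_KO. In WT cells SPRY4 went from 20.6 ± 3.60 to 5.13 ± 0.64 CPM and from 30.9 ± 4.73 to 7.77 ± 0.27 CPM. ERRFI1, an inhibitor of EGFR, went from 31.7 ± 2.20 to 10.1 ± 0.52 CPM and from 27.1 ± 2.96 to 11.02 ± 1.56 CPM. The increase among negative regulators with the largest fold was INPP5D, an inositol phosphatase, at 1 to 5 counts in DAXX-series WT control and 42 to 62 with etoposide. Those control counts are below the minimum of the low-count filter, so the difference is given as a description, without a test. The 3 negative regulators higher in DAXX-series WT include INPP5D.

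**Figure D4:**
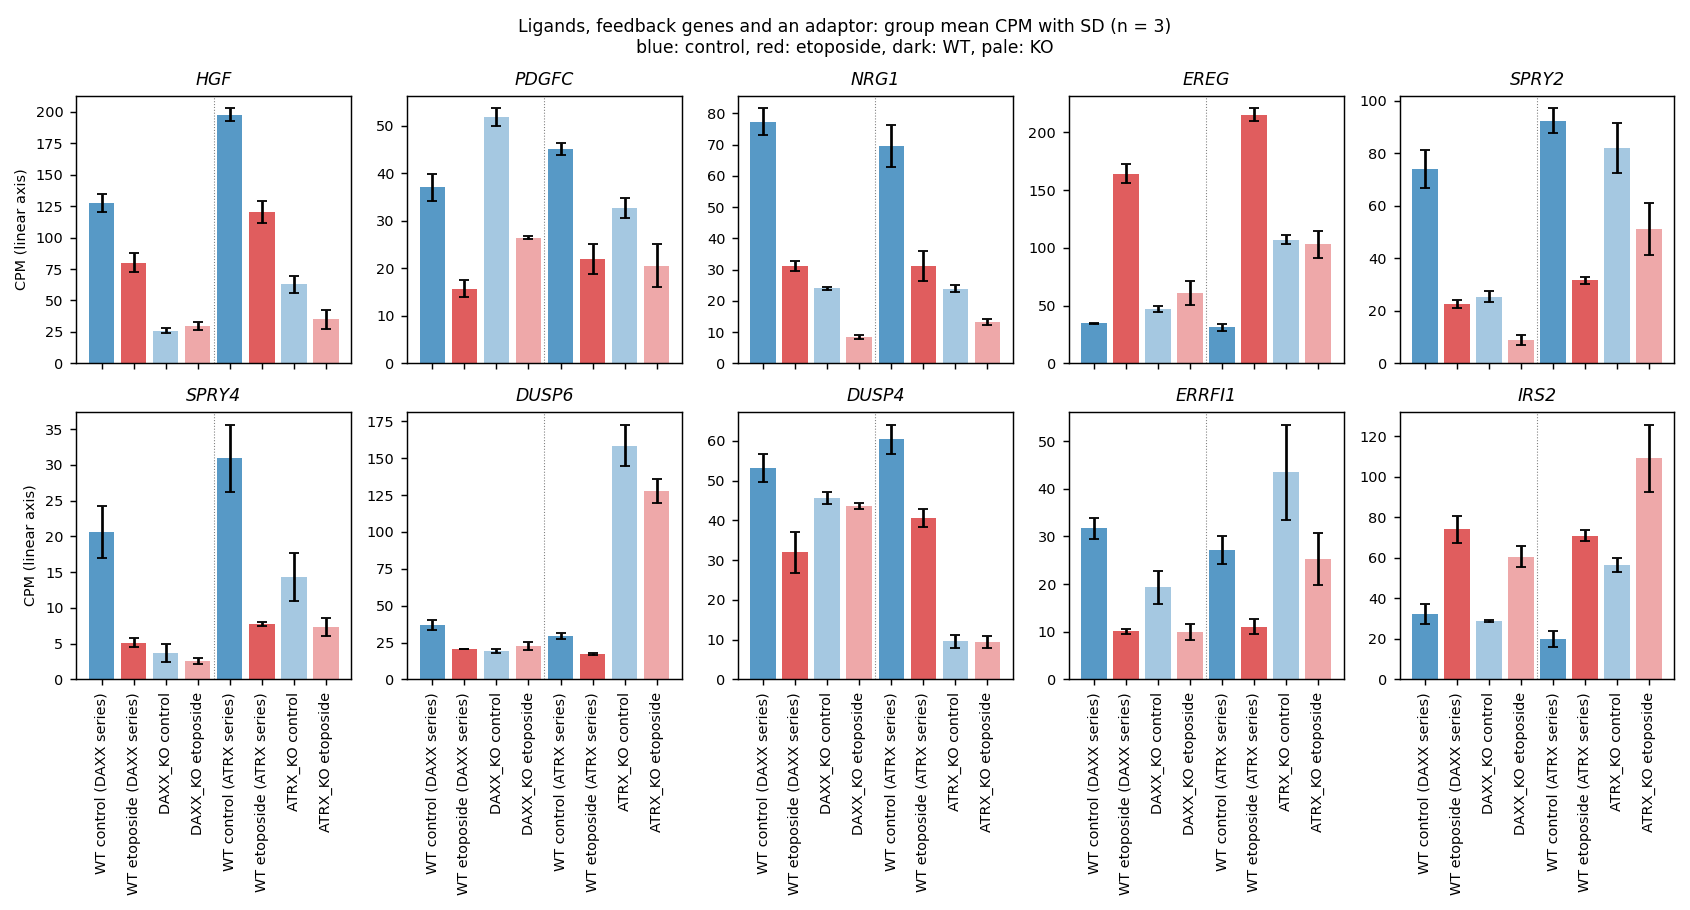
Group mean level in CPM (bars from 0, linear axis) with the SD (n = 3) for 4 ligands, 5 feedback genes and the adaptor IRS2 in the 8 groups, control in blue, etoposide in red, WT dark and KO pale. Mean NRG1 is 77.4 and 69.6 CPM in WT control and 23.9 CPM in either KO control, EREG reaches 164 and 215 CPM in WT etoposide, and DUSP6 reaches 159 CPM in ATRX_KO control.

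In control cells 0 ERK targets were higher and 8 lower in DAXX_KO (median −0.84), and 2 were higher and 5 lower in ATRX_KO (median −0.21). The number higher in DAXX_KO was also 0 by DESeq2 and at an unadjusted edgeR p below 0.05, and scaled by library totals 6 were lower. Among negative regulators 4 were higher and 10 lower in DAXX_KO (median −0.22) and 7 higher and 10 lower in ATRX_KO (median −0.24), beside 26.6% and 21% of all genes called lower. DUSP6, an ERK phosphatase, was 36.7 ± 3.35 CPM in DAXX-series WT control and 19.4 ± 1.16 CPM in DAXX_KO (−0.92, SE 0.11, edgeR adjusted p = 7.71e-07), but 29.4 ± 2.08 CPM in ATRX-series WT control and 159 ± 14.2 CPM in ATRX_KO (2.43, SE 0.09, edgeR adjusted p = 2.3e-12). DUSP4, its nuclear relative, showed the reverse in ATRX_KO, at 60.4 ± 3.69 CPM in WT and 9.56 ± 1.70 CPM in KO (−2.65, SE 0.13, edgeR adjusted p = 9.29e-11). ERRFI1 was −0.71 in DAXX_KO (edgeR adjusted p = 0.00012) and 0.69 in ATRX_KO (edgeR adjusted p = 0.00254). The difference between the lines was called above 0 for 3 negative regulators and below 0 for 9 (median 1e-04), beside 17% and 17.2% of all genes. Scaled by library totals, 5 were called above 0 and 7 below (median 0.12). Among those called in the main fit were DUSP6 (−3.35, SE 0.13, edgeR adjusted p = 4.44e-16), DUSP4 (2.43, SE 0.16, edgeR adjusted p = 6.74e-12) and ERRFI1 (−1.40, SE 0.22, edgeR adjusted p = 1.7e-05).

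The etoposide responses of several ERK targets differed between KO and WT cells. The interaction was called above 0 for 5 of 10 and below 0 for 0 in the DAXX series, and above 0 for 5 and below 0 for 1, EPHA4, in the ATRX series, with medians of 0.38 and 0.47 against 0.02 and −0.01 over all genes, of which 14.2% and 16% were called, 8.38% and 8.36% above 0. The count below 0 in the DAXX series was 0 by DESeq2 too, and 1 both at an unadjusted p below 0.05 and when scaled by library totals. CCND1, the cyclin that carries growth signals to the cell cycle, had interactions of 0.84 (SE 0.09, edgeR adjusted p = 3.54e-06) and 0.96 (SE 0.12, edgeR adjusted p = 8.19e-05), from WT levels of 478 ± 10.7 and 605 ± 7.23 CPM in control and KO control levels of 179 ± 5.57 and 289 ± 10.99 CPM. Because a gene already lower in KO control cells enters the interaction through the same libraries, the knockout and interaction counts are not separate evidence.

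**Figure D5:**
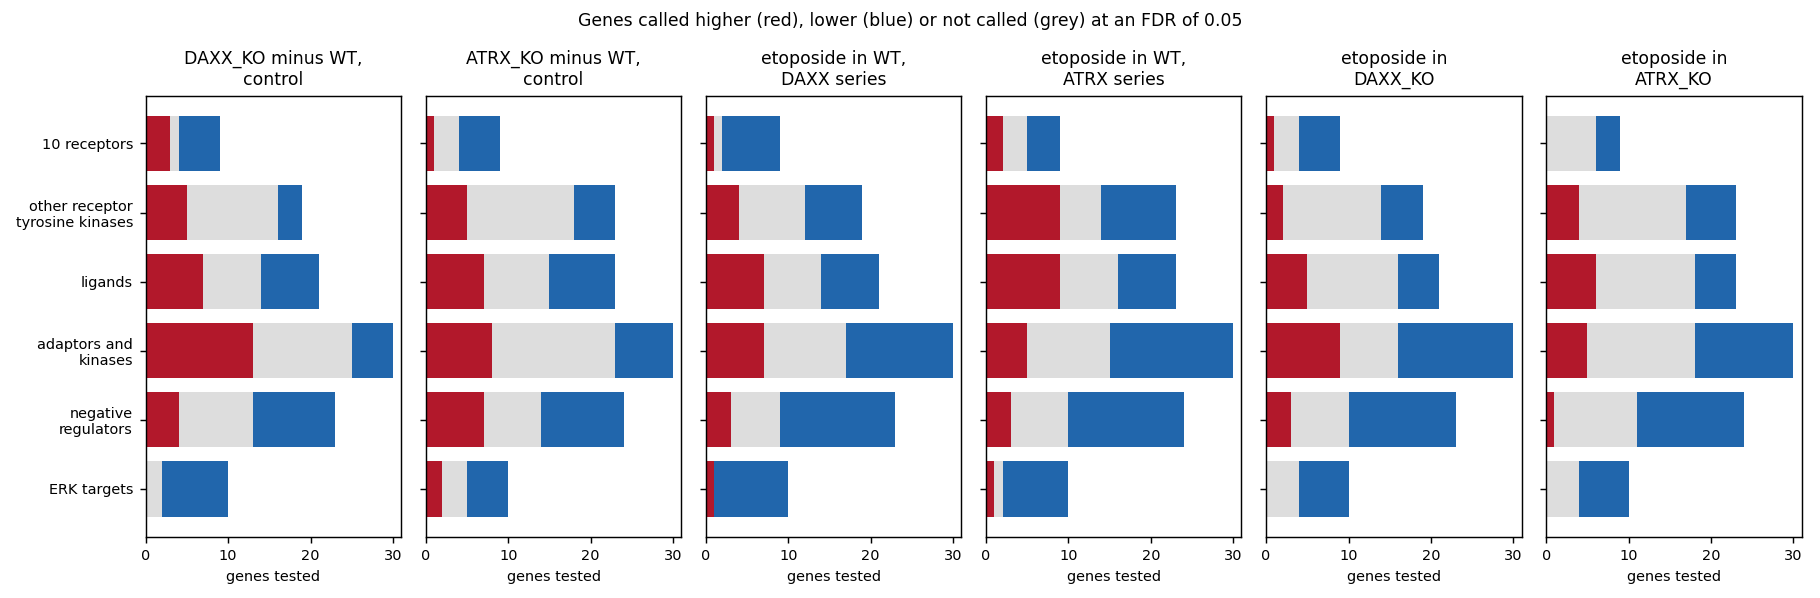
Number of tested genes called higher (red), lower (blue) or not called (grey) by edgeR at an FDR of 0.05 in 6 comparisons, for the 10 receptors (9 tested) and 5 gene lists. ERK targets and negative regulators are more often lower than higher with etoposide, and the 10 receptors are more often lower than higher in each comparison shown. The receptor calls include PDGFRA, which passed the low-count filter only through WT libraries.

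The other members of the receptor tyrosine kinase family, 48 genes, were mostly silent or nearly so, 19 (DAXX series) and 23 (ATRX series) being testable. In control cells 5 were higher and 3 lower in DAXX_KO, and 5 higher and 5 lower in ATRX_KO, so 42.1% and 43.5% of those tested were called against 53.4% and 41.8% of all genes. NTRK3, a neurotrophin receptor, was 4.38 ± 0.41 CPM in WT and 0.63 ± 0.23 CPM in DAXX_KO (−2.75, SE 0.32, edgeR adjusted p = 6.97e-07), and EPHB4 was 9.74 ± 0.60 and 2.47 ± 0.52 CPM (−1.97, SE 0.30, edgeR adjusted p = 1.45e-05). ROR1, an orphan receptor of the WNT system, had 110 to 130 counts a library in ATRX-series WT control and 0 to 3 in ATRX_KO, and EPHB1 had 0 in each WT and 24 to 35 in each ATRX_KO control library. With so few counts in 1 of the groups compared, both differences are a description, without a test. Etoposide in WT gave 4 higher and 7 lower in the DAXX series and 9 higher and 9 lower in the ATRX series, beside 60.2% and 61.5% of all genes called. EPHB2, a relative of EPHA2, fell with etoposide in DAXX-series WT from 93.8 ± 3.75 to 30.8 ± 1.04 CPM (−1.59, SE 0.08, edgeR adjusted p = 2.39e-12). The interaction was called above 0 for 1 and below 0 for 1 in the DAXX series, and for 4 and 5 in the ATRX series. Of all genes 14.2% and 16% were called. DDR1, a collagen receptor, had a called interaction of −1.20 in the DAXX series (SE 0.15, edgeR adjusted p = 1.68e-05).

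Likeness was measured as the root mean square distance between log2 CPM values, each gene centred on its own mean over the 24 libraries, among 15038 genes tested in both series. The nearest gene to EGFR was NCL, the nucleolar protein nucleolin, at 0.09, then DNAJC9 at 0.10, where the SD of EGFR itself over the libraries was 0.59. MET was nearest to RDX (0.11) and MORF4L1 (0.12), AXL to PTN (0.19) and MCM5 (0.20), and FGFR1 to C1GALT1 (0.16) and ITGA7 (0.17). The nearest distances were 0.33 for IGF1R to HDAC5 (own SD 0.69), 0.35 for PDGFRB to AC093668.2 (own SD 0.81), 0.43 for EPHA2 to ENSG00000236673 (own SD 1.25), 1.04 for PDGFRA to CNIH2 (own SD 1.82) and 0.19 for ERBB2 to PCYT1A (own SD 0.30). FGFR3 is left out of this ranking because of its 0 to 2 counts. The libraries share their groups and their depth, so these distances describe a pattern over 8 groups.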

How the data were processed

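QuantSeq 3′ mRNA libraries were read single-end on a NextSeq500. Per the study's methods, the authors aligned the reads with STAR to hg19 and deposited estimated counts per Ensembl gene from RSEM, for which the submitters' processing notes give version 1.2.3 and the methods another version. The deposited values were whole numbers for 57736 genes, of which 55501 matched a GENCODE symbol on GRCh37. A 3′ library counts transcript ends, so levels are comparable between groups but were not compared between genes.

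Counts were tested with edgeR 4.0.16 (R 4.3.3), using TMM scaling, filterByExpr (minimum count 10, minimum total 15) and the quasi-likelihood test at an FDR of 0.05 over all genes tested, in a model of 12 libraries per series (15247 and 16371 genes) and of all 24 for the comparisons across series (16674 genes). CPM used TMM scaling over 24 libraries. The 95% intervals are the log2 fold change plus and minus the normal quantile times the SE. A floor of 3 counts was used, and exact intervals for count ratios cover counting error only. The fit was tested on simulated data. DESeq2 1.42.0, the study's tool, other scalings and filters, a replicate block and leaving out each library were alternatives. The receptors and gene lists were chosen with earlier results of these data known. Genes named from a list were the 3 with the largest fold change among those called whose groups did not overlap, plus HGF, GAS6, PDGFC, FGF2, EFNA1, ERRFI1 and DUSP6. Overlap was not a condition for the interactions and for the difference between knockout effects. Same-numbered libraries did not deviate together (36 correlations from −0.146 to 0.05). No pair of replicates looked like copies of 1 library (chi-square per degree of freedom 2.16 to 17.1 over 24 pairs). Some genes of the lists that the rule would name are not reported here.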

Additional observations from a re-analysis of the deposited data

Results flagged for a closer look

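For 5 receptors and conditions the etoposide response differed between KO and WT cells by the interaction test in edgeR. In the DAXX series the differences on the log2 scale were 5.07 for PDGFRA, 0.58 for MET and −1.43 for IGF1R. PDGFRA had 0 to 20 counts a library and passed the low-count filter only through WT control, so its value is not read as a test. In the ATRX series the differences were −0.58 for AXL and −1.72 for IGF1R. The knockout effect in control cells differed between DAXX_KO and ATRX_KO by −0.74 for EGFR, 2.13 for PDGFRB, 0.49 for AXL and 1.12 for FGFR1. With 3 libraries a group, single libraries were not tested as outliers.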

How the results depend on the processing

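Over 108 single-receptor results, settings other than leaving out a library left 787 values with the same direction and the same side of the threshold, 13 weaker, 12 stronger, 12 moved and 13 reversed. Leaving out 1 library gave 739 unchanged in this sense, 27 weaker, 5 stronger and 39 reversed. Library totals alone moved the median of all genes by 0.18 for DAXX_KO against WT control, by −0.11 for etoposide in DAXX_KO and for the DAXX interaction, and by 0.12 for the difference between knockout effects. The share of calls that were higher went from 50.1% to 66.2% for DAXX_KO control, from 50.1% to 60.2% for ATRX_KO with etoposide, from 59.1% to 36.8% for the DAXX interaction, from 49.7% to 62.7% for the difference between knockout effects and from 45.4% to 29.3% for the WT control comparison. The DAXX interaction then called 5 receptors in place of 3. The replicate block, whose numbers do not pair the samples, gave 1244 genes for the WT control comparison (2206 without it) and 1 receptor in place of 2, as did no filter, and leaving out 1 library gave 1106 to 1695 genes and 1 to 2 receptors, with 1106 without DAXX-series WT control replicate 3 and 1373 without ATRX-series WT control replicate 3.

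Reversed values were uncalled in the results above except MET in DAXX_KO with etoposide, −0.0346 relative to its neighbours. EGFR in ATRX_KO with etoposide was 0.0149 in the model of 24 libraries, 0.0861 with library totals and −0.0777 to 0.0605 with 1 library left out. With library totals ERBB2 was 0.0525 in ATRX_KO with etoposide and −0.0189 for etoposide in DAXX_KO, FGFR1 0.0093 for etoposide in ATRX-series WT (0.0427 with at least 10 counts in every library) and −0.0382 for the DAXX interaction, and IGF1R −0.0237 for etoposide in DAXX_KO. The difference between knockout effects was −0.013 for IGF1R with no filter, and for MET −0.0006 by DESeq2, −0.001 with RLE and −0.0283 with no filter. With 1 library left out ERBB2 ran from −0.0582 to 0.3442 for DAXX_KO control, −0.0409 to 0.3611 for etoposide in DAXX_KO, −0.1347 to 0.0736 for ATRX_KO with etoposide and −0.2393 to 0.1824 between knockout effects. FGFR1 ran from −0.0917 to 0.0164 for etoposide in ATRX-series WT, IGF1R from −0.0152 to 0.2974 for etoposide in DAXX_KO and −0.1978 to 0.2099 between knockout effects, and MET from −0.0363 to 0.0283 between knockout effects and −0.0475 to 0.0113 between WT controls. EPHA2 ran from −0.244 to 0.057 for the ATRX interaction, PDGFRA from −0.8316 to 1.0804 for etoposide in ATRX_KO and −0.8575 to 0.3724 between knockout effects, and PDGFRB from −0.6501 to 0.0296 for ATRX_KO with etoposide. The cause was not tested. Low counts limit the precision for PDGFRA, ERBB2 and FGFR3.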
